A study of Mus musculus with 6 samples.

Results

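The genes described here are 10 genes of a pair of pathways that sense foreign and reactive compounds. Hmox1, Nqo1, Gclc, Gclm, Txnrd1 and Srxn1 are targets of the transcription factor NRF2. Cyp1a1 and Cyp1b1 are targets of the aryl hydrocarbon receptor AhR, Ahr encodes that receptor, and Ahrr encodes its repressor. The genes were listed by name, and a probe set was taken for each where the platform's gene table gives it that gene symbol alone. All 10 were found, with 1 such probe set each, among 23410 probe sets with a gene and 35556 in all. They were measured in C1498, a mouse line of C57BL/6J background that the labels call acute myeloid leukemia. The cells were given PJ34, an inhibitor of PARP-1, at 20 μM for 48 h, or PBS for the same time, and total RNA went onto 3 Affymetrix Mouse Gene 1.0 ST arrays per group. Values are log2 expression values made by the authors with RMA, which corrects background and quantile normalizes, so a difference of 1 between groups is a 2-fold change. The comparison asks which of these genes differ in level between cells given the inhibitor and cells given PBS.

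NRF2 is held in the cytoplasm by KEAP1, which directs its degradation. Electrophiles and oxidants release it, and it pairs with small MAF proteins at antioxidant response elements (AREs) to raise genes for glutathione, thioredoxin and quinone metabolism. BACH1 occupies the same elements as a repressor and leaves them when heme binds it, and Hmox1 is its best known target. AhR binds planar aromatic ligands, moves to the nucleus, pairs with ARNT and acts at xenobiotic response elements (XREs). Its targets include the cytochromes P450 Cyp1a1 and Cyp1b1, and the repressors AHRR and TIPARP limit it.

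The letters of both elements can be seen in the RefSeq windows (GRCm38.p6) of 250 bases before to 50 after a gene's start, which were at hand for 7 of the 10 genes and not for Hmox1, Gclc and Ahr. The ARE core, searched as TGACNNNGC on both strands, was in the windows of Gclm, Txnrd1 and Srxn1. Of 27025 genes with a window, 14.0% held it in at least 1, as did 12.4% of the 32851 windows. The XRE core, searched as GCGTG on both strands, was in 6 of the 7, Nqo1 being the exception, and in 35.2% of all genes with a window, or 32.4% of windows. No ARE core in these windows overlapped an XRE core. A match of letters is not a measured binding site. The stretches below show 1 match per gene, the ARE core for the NRF2 targets and the XRE core for the AhR pathway genes, each 5′ to 3′ on the strand that reads the core, with the core in capitals.
Gclm (chr3:122245413-122245441, minus strand): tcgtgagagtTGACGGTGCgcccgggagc
Txnrd1 (chr10:82859104-82859132, minus strand): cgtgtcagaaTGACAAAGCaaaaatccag
Srxn1 (chr2:152105542-152105570, minus strand): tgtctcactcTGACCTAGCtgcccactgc
Cyp1a1 (chr9:57697547-57697575, plus strand): tcagataaggagGCGTGgccaacagacac
Cyp1b1 (chr17:79715121-79715149, plus strand): ttagggggtgggGCGTGaggggcgggacg
Ahrr (chr13:74292422-74292450, minus strand): tattgaaagggcGCGTGgcaggcagggac

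Array medians lay between 4.41 and 4.46, and arrays correlated at 0.992 to 0.995 within groups and 0.992 to 0.994 between them. The labels number the arrays of a group without saying whether they came from separate cultures. The authors' paper speaks of 3 independent experiments, without saying how these match the arrays. The p-values measure the spread between these arrays, which may be technical. Of 18 myeloid markers, Cebpa, Cebpe, Fcgr1 and Cd68 lay above 4.72, the median level of the probe sets tested. The other myeloid markers, Mpo, Elane, Cd33 and Spi1 among them, lay below it. Of 19 T and NK cell markers 6 lay above it, namely Cd3d, Cd3e, Cd3g, Cd7, Cd28 and Zap70. Others of that list, such as Cd247, Cd2, Cd5, Thy1 and Cd8a, lay below it. Mean levels were 10.5 for Cd3e, 11.1 for Cd3g, 8.47 for Cd7, 7.96 for Cd28, 7.30 for Zap70 and 4.76 for Cd3d. Among the myeloid markers above the median they were 7.14 for Fcgr1, 4.97 for Cd68, 4.86 for Cebpa and 4.83 for Cebpe. Most markers of both lists were thus dim, and they neither bear out the labelled cell type nor settle another. The mean level over the myeloid markers was 3.73 to 3.78 on the PBS arrays and 3.78 to 3.90 on the PJ34 arrays. Of these, 2 were called higher by limma, Fcgr1 and Cd68, and none lower. Over the T and NK markers it was 5.01 to 5.03 and 5.24 to 5.28. Here 4 were higher, Cd7, Cd28, Cd4 and Gzma, and none lower. Their log2 fold changes were 1.66, 1.44, 0.62 and 0.90. Of all probe sets tested, 1.72% were called higher and 1.34% lower. The other lists held 8 B cell, 6 erythroid and megakaryocyte, and 12 fibroblast, endothelial and epithelial markers, with none called. The part of these shifts in the results that follow was not tested.

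PJ34-treated cells held less mRNA of Hmox1, and no other member passed the test. Hmox1 encodes heme oxygenase 1, which opens heme to biliverdin, iron and carbon monoxide. Its log2 expression values were 6.72, 6.67 and 6.80 on the PBS arrays and 6.12, 6.05 and 6.13 on the PJ34 arrays. All 3 PJ34 values lay below all 3 PBS values, with a gap of 0.54 between the groups. Hmox1 fell by 0.63 on the log2 scale (SE 0.066, n = 3 and 3, adjusted p = 0.00282 from limma), to 0.647 of its PBS level (95% confidence interval 0.583 to 0.718). The fall was the 41st largest of the 314 that passed. RNA was pooled over the cells of a culture, so fewer cells that express a gene and less of its RNA per cell cannot be told apart.

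Of the 10 members, 1 was lower and none higher at an adjusted p under 0.05, while of all probe sets tested 1.34% were lower and 1.72% higher. The median log2 fold change of the members was 0.03, against 0.00 for all probe sets tested. Groups did not overlap for 2 of the 10, Hmox1 and Nqo1, compared with 23.5% of all probe sets. At an unadjusted p under 0.05 from limma there were the same genes, Hmox1 lower and Nqo1 higher, or 20% of the members against 16.7% of all probe sets tested. The methods' t-test, after Benjamini-Hochberg adjustment, also called 1 member lower, Hmox1 (adjusted p = 0.0447), and none higher.

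**Figure D1:**
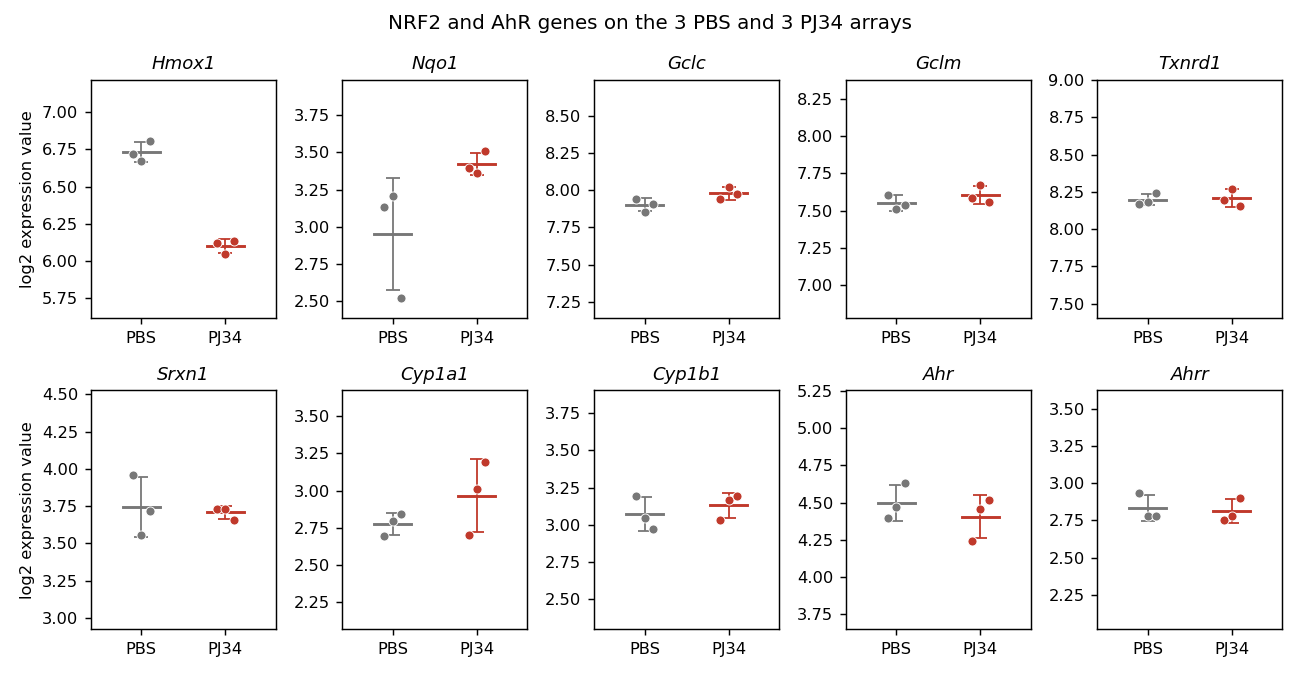
Log2 expression value (vertical axis, a span of 1.6 in every panel) of each of the 10 genes on the 3 arrays given PBS (grey) and the 3 given PJ34 (red), with group means as bars and SDs as whiskers. Hmox1 drops from a mean of 6.73 to 6.10, and the PBS arrays of Nqo1 spread from 2.52 to 3.21.

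Gclc and Gclm encode the catalytic and modifier subunits of glutamate-cysteine ligase, which sets the rate of glutathione synthesis. Gclc had values of 7.94, 7.85 and 7.91 with PBS and 7.94, 8.02 and 7.98 with PJ34, and its groups met at 7.94. The log2 fold change of Gclc was 0.08 (SE 0.062, limma adjusted p = 0.603). Gclm had values of 7.61, 7.51 and 7.54 with PBS and 7.58, 7.67 and 7.56 with PJ34, a log2 fold change of 0.05 (SE 0.065, limma adjusted p = 0.755). The groups overlapped for both subunits. The 95% confidence intervals reached from 0.957 to 1.16-fold for Gclc and from 0.936 to 1.15-fold for Gclm.

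Txnrd1, the cytosolic thioredoxin reductase, was at 8.17, 8.18 and 8.24 with PBS and at 8.20, 8.27 and 8.15 with PJ34. These groups overlapped over most of their range. Its log2 fold change was 0.01 (SE 0.064, limma adjusted p = 0.964), with an interval of 0.911 to 1.11-fold. Gclc, Gclm and Txnrd1 were brighter than the median probe set, as was Hmox1. With their errors, changes of 1.22-fold, 1.23-fold and 1.22-fold would have passed the test. The interval of Hmox1, -0.78 to -0.48 on the log2 scale, lay wholly below the interval of each of the 9 other members.

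Nqo1 encodes the quinone reductase, a standard reporter of NRF2 activity that AhR also raises. Its values were 3.13, 3.21 and 2.52 with PBS and 3.39, 3.36 and 3.51 with PJ34. The PJ34 values were all above the PBS values, but PBS replicate 3 stood well below the other PBS arrays, and the SD was 0.376 with PBS against 0.077 with PJ34. The log2 fold change was 0.47 (SE 0.16, 95% confidence interval 0.10 to 0.84), and it did not pass (adjusted p = 0.184 from limma). Without PBS replicate 3 the log2 fold change was 0.25 (adjusted p = 0.237 from limma). The probe set of Nqo1 was dimmer than the median probe set, where an unknown share of the signal is background.

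Srxn1, sulfiredoxin, which repairs overoxidised peroxiredoxins, was at 3.96, 3.56 and 3.71 with PBS and at 3.73, 3.73 and 3.66 with PJ34. All PJ34 values fell inside the PBS range. The log2 fold change was -0.04 (SE 0.10, limma adjusted p = 0.905), and this probe set too was dimmer than the median.

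The receptor and its repressor kept overlapping values. Ahr was at 4.39, 4.47 and 4.63 with PBS and at 4.24, 4.45 and 4.52 with PJ34, a log2 fold change of -0.09 (SE 0.094, limma adjusted p = 0.695). Ahrr was at 2.93, 2.78 and 2.78 with PBS and at 2.75, 2.78 and 2.90 with PJ34, a log2 fold change of -0.02 (SE 0.074, limma adjusted p = 0.934). In both genes the highest PJ34 array exceeded at least 1 PBS array.

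Cyp1a1 and Cyp1b1, monooxygenases that oxidise aromatic compounds and are the customary readout of AhR, did not pass either. Cyp1a1 was at 2.70, 2.80 and 2.84 with PBS and at 2.70, 3.01 and 3.19 with PJ34. Of its PJ34 arrays 2 lay above every PBS array and the other within 0.01 of the lowest. Its log2 fold change was 0.19 (SE 0.12, 95% confidence interval -0.08 to 0.46, adjusted p = 0.484 from limma). That value rested on single arrays, since it was 0.32 without PJ34 replicate 1 (unadjusted p = 0.00709, adjusted p = 0.149 from limma) and 0.08 without PJ34 replicate 3. Cyp1b1 was at 3.20, 3.05 and 2.98 with PBS and at 3.04, 3.17 and 3.20 with PJ34, a log2 fold change of 0.06 (SE 0.080, limma adjusted p = 0.787). All 4 genes of the AhR group were dimmer than the median probe set, and with all 6 arrays none of them had an unadjusted p under 0.05. A rise of Cyp1a1 would have had to reach 1.45-fold to pass, and one of Cyp1b1 1.29-fold. With the errors of this fit, a smaller estimate would not have passed, whatever the true difference.

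**Figure D2:**
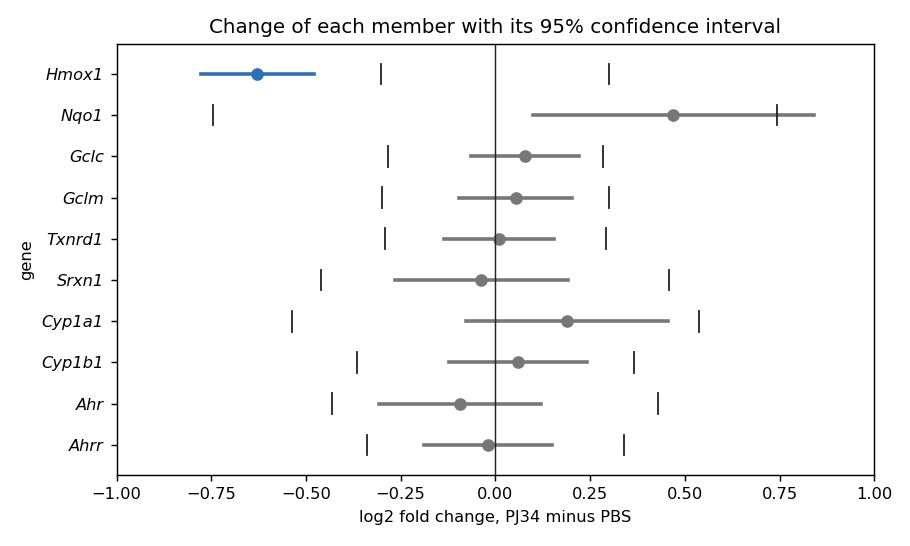
The 10 genes (vertical axis) by log2 fold change of PJ34 over PBS (horizontal axis), each dot with its 95% confidence interval from limma. Blue marks the fall of Hmox1 at -0.63, grey marks genes that did not pass, and short black lines mark the change that each gene would have needed to pass, 0.74 for Nqo1 and 0.28 for Gclc.

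The regulators of NRF2 and the other genes of both pathways were measured on the same arrays. Counts for each list below stand beside 1.72% higher, 1.34% lower and 16.7% at an unadjusted p under 0.05 among all probe sets tested. The lists were not matched to all probe sets in brightness. A single call in a list of this size is not a result about the list. Nfe2l2, which encodes NRF2, was at 10.06, 10.09 and 10.05 with PBS and at 10.16, 10.28 and 10.10 with PJ34. Its log2 fold change was 0.11 (SE 0.068, limma adjusted p = 0.475), and the groups did not overlap by a narrow margin. Keap1 had a log2 fold change of 0.04 (SE 0.083) and the repressor Bach1 one of 0.09 (SE 0.061), and neither passed. Of 12 NRF2 regulators, 1 rose and none fell in limma, with 4 at an unadjusted p under 0.05. The riser was Sqstm1, which encodes p62, an autophagy receptor that binds KEAP1 and is itself an NRF2 target. It was at 8.62, 8.70 and 8.75 with PBS and at 9.08, 8.98 and 9.06 with PJ34, a log2 fold change of 0.35 (SE 0.067, limma adjusted p = 0.0325). Nfe2l1, the related factor NRF1, had a log2 fold change of -0.37 and missed the threshold (adjusted p = 0.0538 from limma).

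Hmox1 was the only call among 15 genes of heme and iron handling, of which 4 had an unadjusted p under 0.05. Hmox2, the constitutive heme oxygenase, had a log2 fold change of 0.02 (SE 0.058). Blvrb and Blvra, which encode biliverdin reductases, had -0.33 (SE 0.093, limma adjusted p = 0.107) and -0.12. The ferritin chains Fth1 and Ftl1, which store the freed iron, had 0.09 and 0.05, and Alas1, the first enzyme of heme synthesis, 0.07. For Blvrb the groups did not overlap, with PBS values of 6.42, 6.25 and 6.51 and PJ34 values of 6.00, 5.97 and 6.21. Aco1, the iron regulatory protein IRP1, had 0.36 (adjusted p = 0.0706 from limma).

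Of 23 genes of glutathione metabolism, none rose and 1 fell in limma, with 6 at an unadjusted p under 0.05. The latter was Gss, glutathione synthetase, which completes the tripeptide that glutamate-cysteine ligase begins. Gss was at 8.31, 8.36 and 8.28 with PBS and at 7.99, 8.09 and 7.95 with PJ34. Its log2 fold change was -0.31 (SE 0.066, limma adjusted p = 0.0485). Gstm1, a glutathione S-transferase whose near-identical relatives may share its probes, had 0.36 and did not pass (adjusted p = 0.0602 from limma). Slc7a11, the cystine importer, had 0.15 (adjusted p = 0.297 from limma). Of 17 thioredoxin and peroxiredoxin genes, Sesn2 fell and none rose, with 6 at an unadjusted p under 0.05. Sestrin 2 joins the antioxidant and amino acid stress responses, and its gene was at 8.42, 8.49 and 8.54 with PBS and at 8.16, 8.08 and 8.02 with PJ34. Its relative Sesn1 had 0.31 (adjusted p = 0.0726 from limma). The 4 measured peroxiredoxins, which reduce peroxides, had log2 fold changes of both signs and none passed, with 0.17 for Prdx1, -0.21 for Prdx2, -0.06 for Prdx3 and -0.16 for Prdx4 (adjusted p = 0.197, 0.159, 0.727 and 0.224 from limma).

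None of 17 enzymes for quinones and aldehydes passed limma, with 7 at an unadjusted p under 0.05. The largest changes among those above the median level were in Osgin1, an oxidative stress gene, at 0.28 (adjusted p = 0.144 from limma) and the carbonyl reductase Cbr1 at 0.23 (adjusted p = 0.0816 from limma). Of 8 genes that supply NADPH, Idh1, the cytosolic isocitrate dehydrogenase, rose and none fell in limma, with 2 at an unadjusted p under 0.05. Idh1 was at 7.29, 7.36 and 7.36 with PBS and at 7.71, 7.79 and 7.57 with PJ34, a log2 fold change of 0.36 (SE 0.074, limma adjusted p = 0.0425). The pentose phosphate enzyme Taldo1 had 0.21 (adjusted p = 0.228 from limma).

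Among 20 listed AhR targets, Tiparp rose and none fell in limma, with 4 at an unadjusted p under 0.05. Tiparp encodes an ADP-ribosyltransferase of the PARP family that AhR induces and that in turn represses AhR. It was at 7.31, 7.39 and 7.38 with PBS and at 7.78, 7.92 and 7.79 with PJ34, and the groups were far apart. The log2 fold change was 0.46 (SE 0.068, limma adjusted p = 0.0106), a ratio of 1.38 (95% confidence interval 1.24 to 1.54). Cyp1a2, the third enzyme of the Cyp1 family, had 0.02 (SE 0.12), and the aldehyde dehydrogenase Aldh3a1 had 0.12 (SE 0.058). The amino acid transporter Slc7a5 had -0.23 (adjusted p = 0.101 from limma). Of the 20 targets, 17 lay below the median level. None of 12 genes of the AhR machinery passed, with 3 at an unadjusted p under 0.05. Arnt, the partner of AhR, was at 8.20, 8.27 and 8.24 with PBS and at 8.20, 8.25 and 8.21 with PJ34, a log2 fold change of -0.02 (SE 0.060). Its relatives Arnt2 and Arntl had 0.18 each, and neither passed (adjusted p = 0.213 and 0.360 from limma).

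**Figure D3:**
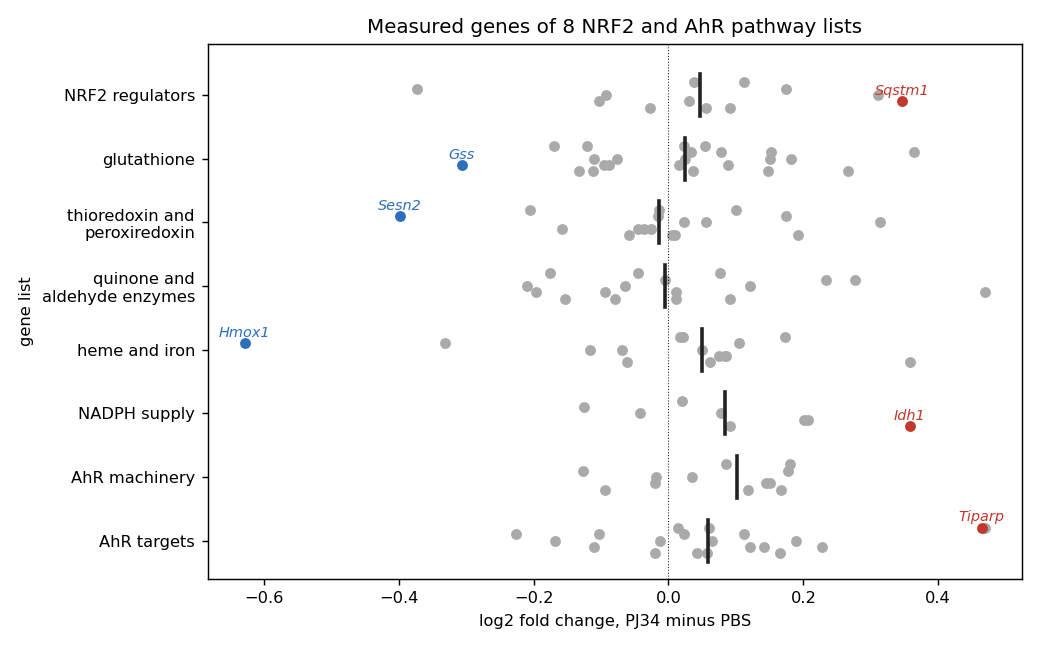
Genes of 8 lists (vertical axis), members included and some in more than 1 list, by log2 fold change of PJ34 over PBS (horizontal axis). Genes called by limma are red where higher and blue where lower, all others are grey, and a black bar gives the median of a list, from -0.01 for the thioredoxin and the quinone lists to 0.10 for the AhR machinery.

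Over the 8 lists there were 110 measured genes besides the members, of which 3 rose (2.73%) and 2 fell (1.82%). Their median log2 fold change was 0.03. Over all probe sets tested, 1.72% were higher and 1.34% lower. Groups did not overlap for 44 of the 110, or 40%, against 23.5% of all probe sets, and 33, or 30%, had an unadjusted p under 0.05 against 16.7% of all probe sets tested. No test of these shares was run. Of the 110 genes, 34 were dimmer than the median probe set, so as a group they were brighter than all probe sets tested. The part of this brightness in the shares was not tested. The methods' t-test called none of the 110 after adjustment. The call of Tiparp held when any 1 array was left out, as did that of Hmox1. It was lost with all 35556 probe sets in the fit (adjusted p = 0.0529) and with the methods' t-test (adjusted p = 0.0708). Those of Sqstm1, Gss, Sesn2 and Idh1 were less firm. Of the 6 fits that left out 1 array, Sqstm1 and Gss passed in the fit without PJ34 replicate 2 alone. Idh1 passed without PJ34 replicate 3 alone, and Sesn2 without PJ34 replicate 1 or 2.

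**Figure D4:**
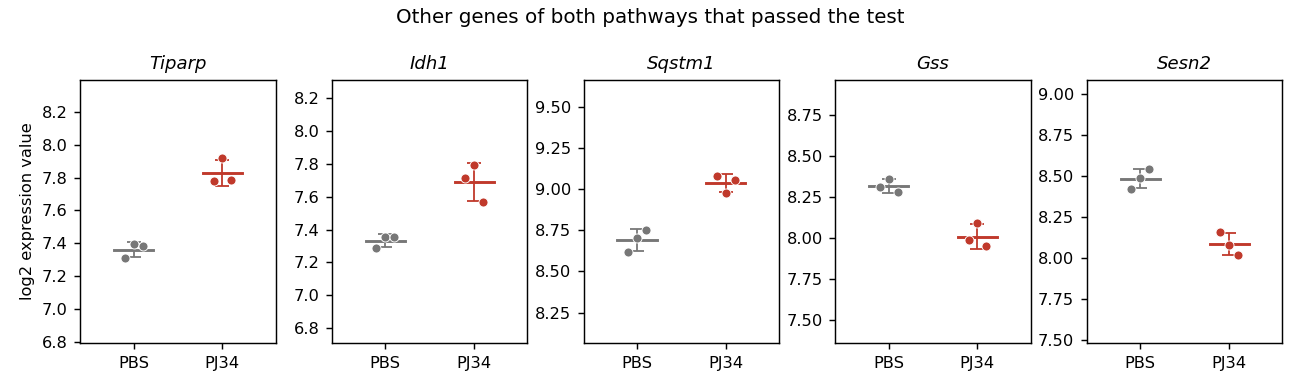
Log2 expression value (vertical axis, a span of 1.6 in every panel) of the 5 other pathway genes that passed, on the 3 arrays given PBS (grey) and the 3 given PJ34 (red), with group means as bars and SDs as whiskers. The groups do not overlap in any panel, which is no separate result since the genes were chosen by the test. Tiparp goes from a mean of 7.36 to 7.83.

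The genes whose values followed Hmox1 most closely over the 6 arrays were sought among 9835 genes above the median level. They were Trib3, a stress-induced pseudokinase (Pearson r = 0.997), Cox6a2, a cytochrome c oxidase subunit (0.996), and Mrpl23, a mitochondrial ribosomal protein (0.995). Their log2 fold changes were -1.11, -1.10 and -0.27, and that of Mrpl23 did not pass (adjusted p = 0.0548 from limma). The 6 points share the step between 2 groups, so these correlations are a description only.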

How the data were processed

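The authors deposited 1 log2 value per probe set and array. The submitters' processing notes name Expression Console 1.3.1 and RMA. RMA's quantile step makes array distributions alike. No scanner files were used here, the values carry no detection calls, and no genome build or annotation version is given in the sources used here. GEO's gene table for the platform gives 1 gene to 21789 probe sets, several to 1621 and none to 12146. Lists use, per gene, the single-gene probe set with the highest mean, and leave out genes without one.

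PJ34 was compared with PBS by limma 3.58.1 in R 4.3.3 (lmFit and eBayes) over 23410 probe sets, with Benjamini-Hochberg adjustment and a threshold of 0.05. The script was tested on simulated data. Precision is limited by the number of arrays, 3 in each group. Samples were grouped by their titles, which call the control cells untreated and the others drug, while the authors' paper names PBS. Alternative scalings, filters, tests and omitted arrays were tried. The members and lists were chosen with earlier results of these data known. Besides the members, the text names every list gene that passed, the 2 non-members per list with the largest change above the median level, NRF2, KEAP1, BACH1 and ARNT, and the 3 genes most like Hmox1. Others (Hmox2, Blvra, Fth1, Ftl1, Alas1, Slc7a11, Prdx1 to Prdx4, Cyp1a2 and Aldh3a1) were named after their values were seen.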

Additional observations from a re-analysis of the deposited data

How the results depend on the processing

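Hmox1 passed in all 13 alternative fits, with log2 fold changes of -0.66 to -0.59 and adjusted p of 6.58e-05 to 0.0447, and the counts of 1 lower and 0 higher members held in each. Nqo1 passed in none of its 12 (adjusted p = 0.0729 to 0.431), nor did any other member. Log2 fold changes of Txnrd1, Srxn1 and Ahrr, all near 0, changed sign in 4, 1 and 2 fits. The larger counts moved with the fit. Over all probe sets, 402 higher and 314 lower became 1008 and 920 with an intensity trend and robust eBayes. Without dim probe sets, which left 11705 in the fit, they were 923 and 836. They were 112 and 76 with probe sets lacking a gene included, and 78 and 62 with the methods' t-test. After quantile normalization over the probe sets tested 537 were higher and 482 lower. With each array centred on its median the balance turned to 332 higher and 365 lower. With 1 array omitted, higher calls ranged from 143 to 281 and lower calls from 79 to 320. Among the 110 other pathway genes, 3 higher and 2 lower became 13 and 8 with the trend. They were 0 and 0 with all probe sets or the t-test. Without dim probe sets 9 were higher and 6 lower, but 34 of the 110 lay below the median level and were not in that fit. The counts over all probe sets also rose with the trend and without dim probe sets. After quantile normalization 6 were higher. With 1 array omitted, these ranged from 1 to 2 and from 0 to 2. The causes were not tested.

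The labels do not say whether same-numbered arrays of the 2 groups were paired. Their deviations from the group means correlated at -0.01, 0.13 and -0.01, which cannot settle it with so few arrays. With the replicate block, 219 probe sets were higher and 140 lower, 1 pathway gene was higher and 0 lower, and Hmox1 had an adjusted p of 0.0132. No member has another single-gene probe set, so fits on another probe set of a gene, or on the mean of all of them, were not run. Probe sets below the median level, 6 of the 10 members among them, have an unknown share of background.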
